A study of Mus musculus with 8 samples.

Results

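The BCL2 family decides whether a T cell under stress or at the end of a response lives or dies, and 10 of its genes were followed here in Th17 cells with and without TRIM28. They were chosen by name, for what their proteins do, out of the 13704 genes that the RNA-seq tables list. They comprise 3 survival genes (*Bcl2*, *Bcl2l1* and *Mcl1*), 2 effector genes (*Bax* and *Bak1*) and 5 BH3-only genes (*Bcl2l11*, *Bid*, *Bad*, *Pmaip1* and *Bbc3*). All 10 were listed in both tables, and all 10 had the 10 reads over both libraries that were required for a test.

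RNA was taken from Th17 cells that had been made in culture from naive CD4+ T cells of C57BL/6 mice, either wild type (WT) or TRIM28fl/flxCD4cre (KO), in which a Cre driven by the *Cd4* promoter deletes *Trim28* in T cells. The cells were cultured for 3 days with TGF-β at 0.5 ng/ml and with IL-6 at 20 ng/ml. The study's methods also give stimulation of the naive cells with plate-bound anti-CD3 and anti-CD28 in culture. They add a final re-stimulation with anti-CD3, which engages the T-cell receptor. There was 1 library per genotype, with 6.65 × 1000000 uniquely assigned reads for WT and 6.19 × 1000000 for KO, so nothing below has a replicate check, and how many mice each library came from is not given in the sources used here. The study used these libraries to find genes that depend on TRIM28. Each gene's reads were compared between the libraries with a two-sided exact binomial test, adjusted by Benjamini-Hochberg over the 10881 genes with at least 10 reads. This test, called the counting test below, compares 2 libraries and not 2 genotypes, and "rose" and "fell" mean that the adjusted p was under 0.05.

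The proteins work at the outer membrane of the mitochondrion. BAX and BAK, the effectors, form pores there that release cytochrome c and set off the caspases, which take the cell apart. BCL-2, BCL-XL (the main product of *Bcl2l1*) and MCL-1 hold the effectors and the BH3-only proteins in check, while the BH3-only proteins, among them BIM (*Bcl2l11*), PUMA (*Bbc3*) and NOXA (*Pmaip1*), carry the death signal by binding the survival proteins or the effectors. In T cells, BIM and BCL-2 are known to set the survival of resting and contracting cells, and cytokine signals and T-cell receptor signals act on the levels of BCL-2, BCL-XL and MCL-1.

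Reads of *Trim28* numbered 4485 in WT and 180 in KO (log2 fold change, KO over WT, -4.53), so the libraries matched their labels. Of the 6 general CD4 T-cell markers 3 fell and 3 rose on library totals, and 3 fell and 1 rose after the correction for transcript length described below. They summed to 3573 CPM (reads per 1000000) in WT and 3412 in KO. Of the 6 Th17 markers 5 fell and 0 rose, and their sum was 1671 CPM in WT and 527.7 in KO. The 4 markers of regulatory T cells summed to 89.3 CPM in WT and 99.6 in KO. Of the 3 with enough reads *Nrp1* rose on library totals (135 and 235 reads, log2 fold change 0.90) and 0 fell. After the length correction *Nrp1* rose by 0.95 and *Ctla4* (442 and 362 reads) fell, at -0.35. *Foxp3*, the defining factor of those cells, had 1 read in WT and 8 in KO (log2 limits 0.21 to 8.58), too few for the test. Markers of other cells were low: the 5 B-cell markers summed to 12.5 and 7.11 CPM, the 6 CD8 T-cell and NK markers to 11.9 and 13.4, and the 8 myeloid markers to 3.46 and 3.72, with *Lyz2*, *Csf1r*, *Adgre1*, *Siglech*, *Ncr1* and *Klrb1c* listed in neither library. *Myc* and *Fasl*, from lists given below, were also listed in neither library, and whether an unlisted gene had no RNA was not tested. The part of other cells in the results below was not tested. In such bulk RNA, fewer cells of a kind and less RNA per cell cannot be told apart.

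As a family, the 10 genes moved little. On library totals, all 10 differed by less than 1.5-fold, as did 71.5% of all genes tested. Lower in KO by the counting test were 3 members, *Bcl2*, *Bcl2l1* and *Bbc3*, against a background of 22.4% of all genes tested, and higher were 2, *Bak1* and *Bid*, against 21.4%. These shares lie near the background. Past 1.5-fold as well, 0 members fell and 0 rose, where 11.5% of all genes fell and 7.02% rose. Past 2-fold it was again 0 and 0, where 5.53% fell and 2.57% rose. The members' median log2 fold change was -0.02, and that of all genes tested was also -0.02. The exact 95% intervals of all 10 members, which cover counting error only, lay within a 2-fold change in either direction. All these values are on library totals. After the correction for transcript length described below, *Bcl2l1* passed 1.5-fold at -0.63, and the intervals of 8 members lay within 2-fold.

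The order of the levels was nearly the same in both libraries. Levels between genes are given in RPKM, reads per 1000 bases of the longest annotated transcript and per 1000000 reads. The survival gene *Mcl1* was the highest member, with 164 RPKM in WT and 169 in KO, above 96.9% and 96.5% of the genes tested. Next came the effectors *Bak1* (103 and 138 RPKM) and *Bax* (93.1 and 95.1), then *Bcl2l1* (69.9 and 48.2), *Bbc3* (32.3 and 26.5), *Bcl2* (21.7 and 15.4) and *Pmaip1* (21.3 and 19.8). *Bid* (6.41 and 8.97 RPKM) and *Bad* (2.45 and 2.32) were low. *Bcl2l11*, the gene of BIM, was the lowest, at 0.776 and 0.803 RPKM.

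Most neighbours in this order differed beyond counting error. The exception was *Bcl2* beside *Pmaip1* in WT, whose RPKM ratio of 1.02 had exact 95% limits of 0.903 to 1.15. In KO these genes changed places, with *Pmaip1* 1.29 times as high as *Bcl2* (limits 1.13 to 1.47). The distance between *Bak1* and *Bax*, the 2 effectors, was small in WT, a ratio of 1.11 (limits 1.01 to 1.21), and larger in KO, 1.45 (limits 1.33 to 1.58). The order depends on which transcript gives the length. With the median length of a gene's coding transcripts, an alternative chosen after seeing the data, *Bbc3* passed *Bcl2l1* in both libraries and *Bcl2* stood above *Pmaip1* in both.

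**Figure D1:**
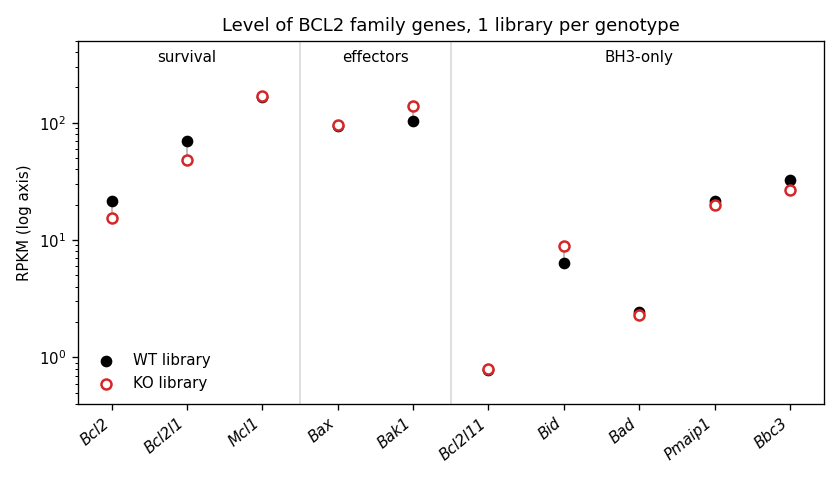
Level of each member in the WT library (filled) and the KO library (open), in RPKM on a log axis, grouped by role, with 1 library per genotype and no error bars. *Mcl1* is highest and *Bcl2l11* lowest in both libraries, and the open symbol lies visibly below the filled one for *Bcl2* and *Bcl2l1* and above it for *Bak1* and *Bid*.

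*Bcl2l1* and *Bcl2*, both survival genes, were the members with the largest falls on library totals, and *Mcl1* did not pass the test. With the longest transcript as the length, the correction described below left the fall of *Bcl2l1*, and that of *Bcl2* was lost (-0.12, limits -0.26 to 0.02). *Bcl2l1* lies on chromosome 2 of GRCm38 from 152758732 to 152833803 on the minus strand, with up to 5 exons in 11 RefSeq transcripts. It had 1193 reads in WT and 766 in KO (log2 fold change -0.53, exact 95% limits -0.67 to -0.40), and the counting test gave an adjusted p of 9.94e-15. *Bcl2* lies on chromosome 1 from 106538176 to 106714290 on the minus strand. It had 1037 reads in WT and 684 in KO (log2 fold change -0.50, limits -0.64 to -0.36, adjusted p 2.16e-11 by the counting test). KO levels were thus 0.691 and 0.709 of those in WT, and 19.2% and 20.7% of all genes tested had lower log2 fold changes still.

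*Mcl1*, on chromosome 3 from 95656944 to 95663179, had 3737 reads in WT and 3580 in KO. Its log2 fold change of 0.04 had limits of -0.02 to 0.11, the narrowest of the family. On library totals the value of *Bcl2* lies well outside them. After the length correction described below, the intervals of both genes overlapped, at -0.0038 to 0.13 for *Mcl1* and -0.26 to 0.02 for *Bcl2*. The 3 genes summed gave 897.3 CPM in WT and 813.2 in KO, of which *Mcl1* alone was 561.9 and 578.8. Without *Mcl1* the sum was 335.3 CPM in WT and 234.4 in KO (log2 fold change -0.52, limits -0.61 to -0.42), on library totals. This sum joins *Bcl2* and *Bcl2l1*, each of which had fallen on library totals, so it is no separate result.

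The effectors parted. *Bak1*, on chromosome 17 from 27019812 to 27028627 on the minus strand with up to 7 exons, had 1636 reads in WT and 2033 in KO. That is a log2 fold change of 0.42 (limits 0.32 to 0.51), a rise of 33.6%, with an adjusted p of 3.52e-17 by the counting test. *Bax*, on chromosome 7 from 45461695 to 45466903 on the minus strand, had 681 and 647 reads (log2 fold change 0.03, limits -0.13 to 0.19). Both are pore formers that can stand in for each other, and in KO only *Bak1* of the pair passed the test as higher.

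The BH3-only genes showed 1 rise, 1 fall and no common direction. *Bid*, whose protein is cut by caspase-8 and links death receptors to the mitochondrion, lies on chromosome 6 from 120893119 to 120917062. It had 103 reads in WT and 134 in KO (log2 fold change 0.48, limits 0.10 to 0.87, adjusted p 0.0278 by the counting test). This was the largest rise of the family, but on few reads. *Bbc3*, a p53 target on chromosome 7 from 16308398 to 16318334, fell, with 389 and 297 reads (log2 fold change -0.28, limits -0.51 to -0.06, adjusted p 0.0264 by the counting test).

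*Pmaip1*, whose protein binds MCL-1, had 387 and 334 reads (chromosome 18, from 66458604 to 66465558). Its log2 fold change of -0.11 had limits of -0.32 to 0.11. *Bcl2l11*, on chromosome 2 from 128126038 to 128162547, had 26 reads in WT and 25 in KO (log2 fold change 0.05, limits -0.80 to 0.90). *Bad*, whose protein is switched off by growth-factor kinases, lies on chromosome 19 from 6941861 to 6951905 and had 25 and 22 reads (log2 fold change -0.08, limits -0.98 to 0.81). With so few reads, *Bcl2l11* would have had to rise by 0.98 and *Bad* by 0.92 on the log2 scale for the interval to leave 0, so smaller differences were not detectable at this depth. The 5 BH3-only genes together held 139.8 CPM in WT and 131.3 in KO (log2 fold change -0.09, limits -0.23 to 0.05).

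**Figure D2:**
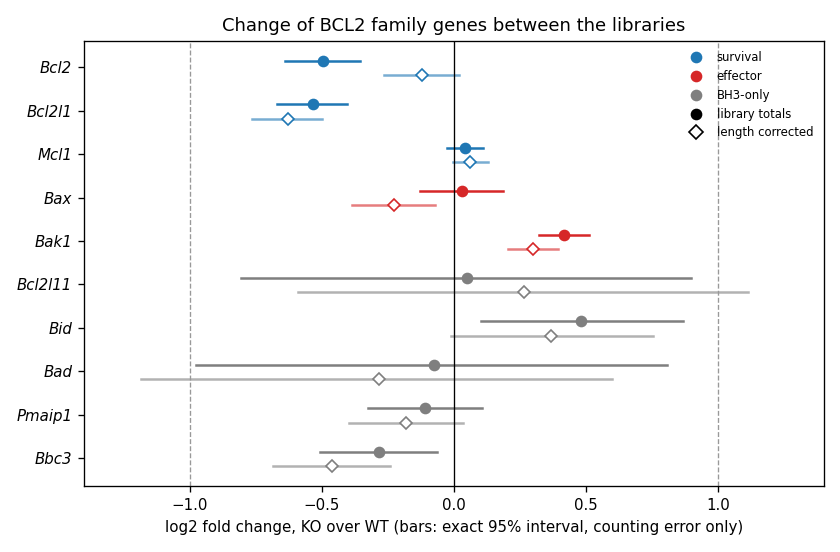
Log2 fold change, KO over WT, of each member from library totals (circles) and after correction for transcript length (diamonds), coloured by role, with bars for the exact 95% interval of counting error and dashed lines at a 2-fold change. *Bcl2l1* lies below 0 and *Bak1* above 0 under both, whereas *Bcl2* moves from -0.50 to -0.12, *Bid* from 0.48 to 0.37 with an interval that includes 0, and *Bax* from 0.03 to -0.23.

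Transcript length moved with the differences between the libraries, and correcting for it altered some of the members' values. Across all genes tested, the median log2 fold change ran from 0.29 in the 10% of genes with the shortest transcripts to -0.44 in the 10% with the longest. *Bcl2*, with a longest transcript of 7191 bases, belongs to the longest 10%, and its value of -0.50 is near their median. *Bcl2l1* (2568 bases) lies among genes whose median was 0.08, and *Bak1* (2387 bases) among genes whose median was 0.14. *Bax*, with 1100 bases, belongs to the shortest 10%. What lies behind the trend with length was not tested.

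With a loess curve against length taken off, *Bcl2l1* fell by 0.63 on the log2 scale (adjusted p 4.2e-20 by the counting test) and *Bak1* rose by 0.30 (adjusted p 3.42e-09 by the counting test). *Bbc3* fell by 0.46, more than before the correction. *Bcl2*, at -0.12, no longer passed the test (adjusted p 0.174), and neither did *Bid* (log2 fold change 0.37, adjusted p 0.113 by the counting test). *Bax* turned from 0.03 to -0.23 and passed as lower, with an adjusted p of 0.0138 by the counting test. In all, 3 members fell after the correction, beside 17.4% of all genes, and 1 rose, beside 20.8%. Those that passed in the same direction with and without it were *Bcl2l1*, *Bbc3* and *Bak1*. The members' median moved to -0.15, where that of all genes was 0.00. All corrected values rest on the longest transcript of each gene. For *Bcl2* that has 7191 bases, whereas its median coding transcript has 5016. The curve stood at -0.37 for *Bcl2* and at -0.21 for *Bcl2l11*, whose longest transcript has 5036 bases. The correction was not repeated with other lengths, so the loss of *Bcl2* and the shifts of its ratios may depend on this choice.

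**Figure D3:**
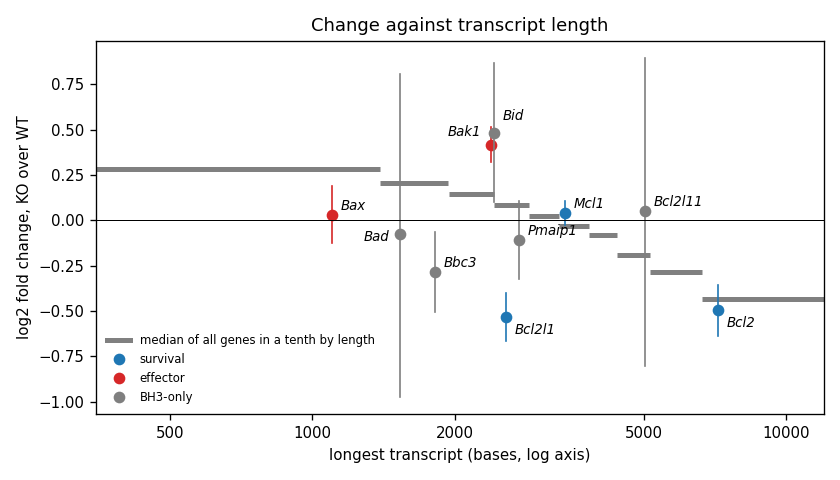
Log2 fold change, KO over WT, of each member (points, with exact 95% intervals) against the length of its longest transcript in bases on a log axis. Grey bars give the median of all tested genes in each 10% by length, falling from 0.29 to -0.44, and *Bcl2* lies near its bar while *Bcl2l1* lies far below its own and *Bak1* above.

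Spread between cultures is not known with 1 library each. When edgeR's exact test was given an assumed coefficient of variation of 0.1, 0 members passed as lower and 0 as higher, where 7.8% and 4.47% of all genes did. At an unadjusted p under 0.05 this exact test kept 2 members as lower, *Bcl2* (p = 0.023, adjusted 0.123) and *Bcl2l1* (p = 0.0134, adjusted 0.0875), and 1 as higher, *Bak1* (p = 0.0471, adjusted 0.192). At an assumed variation of 0.2, 0 members passed even without adjustment. These counts are without the length correction, and the shares of all genes at the unadjusted limit were not computed.

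Ratios of reads within a library do not depend on how the libraries are scaled to each other, and 14 ratios between members whose proteins oppose, replace or bind each other were compared. The change of each is given as KO ratio over WT ratio with an exact 95% interval, unadjusted for the number of ratios. Of the 14 intervals, all without the length correction, 5 lay above 1, 1 below 1 and 8 included 1. The share among pairs of other genes was not computed. The ratios also share members, several of which had passed the test by themselves, so they are not independent results. Among the 5 was *Bak1* to *Bcl2l1*, an effector against a survival protein that holds it. There were 1.37 *Bak1* reads for each *Bcl2l1* read in WT and 2.65 in KO, a change of 1.94-fold (limits 1.73 to 2.17), which on the log2 scale is 0.95, and 0.93 with the length correction. *Bid* to *Bcl2l1* went from 0.0863 to 0.175 reads, a change of 2.03-fold (limits 1.53 to 2.69), and 2.00-fold with the correction. *Bak1* to *Mcl1* went from 0.438 to 0.568, a change of 1.30-fold (limits 1.20 to 1.41) and of 1.18-fold with the correction.

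Ratios to *Bcl2* turned on the length correction, which used the longest transcript of each gene. *Bax* to *Bcl2*, often used as a measure of readiness to die, went from 0.657 to 0.946, a change of 1.44-fold (limits 1.24 to 1.67). After the correction the change was 0.929-fold. No interval was computed for the corrected value, so a change in the opposite direction is not shown. *Mcl1* to *Bcl2* went from 3.60 to 5.23, a change of 1.45-fold (limits 1.30 to 1.62) that shrank to 1.14-fold. *Bcl2l1* to *Bcl2* hardly moved, from 1.15 to 1.12 (0.973-fold, limits 0.851 to 1.11), and changed 0.704-fold with the correction. *Bax* to *Bak1* went from 0.416 to 0.318, a change of 0.765-fold (limits 0.673 to 0.869) and of 0.693-fold with the correction. For *Bcl2l11* to *Bcl2*, the pair best known in T cells, the limits of 0.800 to 2.65 were too wide to show a change in either direction.

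**Figure D4:**
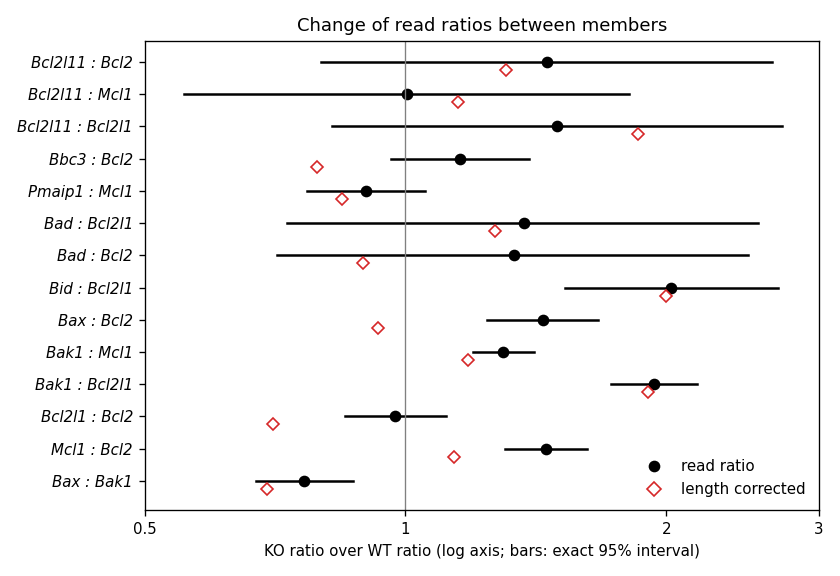
Change of the read ratio between pairs of members, KO over WT on a log axis, with exact 95% intervals of counting error (black) and the value after length correction (red diamonds). *Bid* to *Bcl2l1* and *Bak1* to *Bcl2l1* lie near 2 under both, while *Bax* to *Bcl2* lies at 1.44 and 0.929.

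The 250 bases before the start of *Bcl2*, which fell with library totals, and of *Bak1*, which rose, are shown as 1 example for each direction, from genes with a single start in the RefSeq promoter table of GRCm38.p6. They are written on the gene's own strand (minus), at chr1:106714291-106714540 for *Bcl2* and at chr17:27028628-27028877 for *Bak1*. Capitals mark the GC box GGGCGG on either strand, the letters that SP1-type factors bind.
Bcl2: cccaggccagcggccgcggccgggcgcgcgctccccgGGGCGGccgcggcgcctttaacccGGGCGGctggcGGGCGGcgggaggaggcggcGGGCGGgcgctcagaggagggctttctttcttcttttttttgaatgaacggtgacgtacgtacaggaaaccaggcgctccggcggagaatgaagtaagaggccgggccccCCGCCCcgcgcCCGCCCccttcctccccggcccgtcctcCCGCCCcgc
Bak1: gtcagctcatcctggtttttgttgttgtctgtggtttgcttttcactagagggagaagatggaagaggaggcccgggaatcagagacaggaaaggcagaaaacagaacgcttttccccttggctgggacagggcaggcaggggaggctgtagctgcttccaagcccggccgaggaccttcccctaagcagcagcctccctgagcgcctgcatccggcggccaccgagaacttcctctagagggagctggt
The *Bcl2* window holds 7 GC boxes and 74.8% G and C, the *Bak1* window 0 and 58.4%. Of all windows in RefSeq's list, 32851 in number, 32.7% held a GC box, and the median window had 52.4% G and C. RefSeq gives 15 windows for 9 members, all but *Pmaip1*. GC boxes were in 10 of these 15 windows, from 7 of the 9 members, all but *Bak1* and *Bcl2l1*. The STAT palindrome TTCNNNGAA was in 0 of the 15 windows and in 7.02% of all windows. The ROR half-site AGGTCA, searched on both strands, was in 1 of the 15, a *Bcl2l1* window, and in 14.0% of all windows. These matches describe letters and do not show binding.

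Genes that overlap or flank the members can share reads with them or show how their surroundings moved. *Bak1* lies wholly inside *Ggnbp1* on the opposite strand, which had 8 reads in WT and 3 in KO, and *Bcl2l1* overlaps *Cox4i2* on the opposite strand, with 3 and 3. *Bad* overlaps *Gpr137* by 590 bases, and there the partner had more reads, 44 and 43, than *Bad* itself. Whether the counting used the strand is not given in the sources used here. Of the 20 nearest tested genes to the left and right of the members, 7 fell, beside 22.4% of all genes tested, and 3 rose, beside 21.4%. The neighbours of *Bak1* moved the other way from it, *Zbtb9* by -0.36 and *Itpr3* by -0.71 on the log2 scale. Those of *Bcl2l1*, *Id1* and *Tpx2*, had fewer than 20 reads in each library and did not pass the test. The values and counts for neighbours are on library totals, without the length correction.

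Among the other relatives 1 passed 2-fold, and which one depended on the length correction. Of 17 further genes with a BCL2-like fold or a BH3 region, 14 were listed and 11 had enough reads to be tested. Of these, 3 fell and 2 rose (22.4% and 21.4% of all genes did), with a median log2 fold change of 0.04, and after the length correction 3 fell and 4 rose (17.4% and 20.8% of all genes). *Bcl2l2*, the gene of the survival protein BCL-W, had 211 reads in WT and 96 in KO (log2 fold change -1.03, adjusted p 1.61e-08 by the counting test), and with the length correction it fell short of 2-fold at -0.97. *Bik*, a BH3-only gene, fell from 89 to 53 reads (log2 fold change -0.64), and *Bcl2l14* from 41 to 19 (-0.99), which with the length correction passed 2-fold at -1.12 (adjusted p 0.0136 by the counting test). The mitochondrial mitophagy genes *Bnip3* (254 and 341 reads, 0.53) and *Bnip3l* (1420 and 1498 reads, 0.18) rose.

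Of the other relatives with at least 10 reads, *Bmf* had 50 and 36 reads, *Bcl2l12* 167 and 179, *Bcl2l13* 683 and 593, *Bcl2l15* 8 and 15 and *Becn1* 930 and 890, and none of these 5 passed the test, although *Bcl2l13* (0.26) and *Becn1* (0.17) passed as higher after the length correction. *Bcl2a1b* had 6 and 9 reads, but the *Bcl2a1* genes are near-identical copies that uniquely assigned reads cannot separate well, so their values are uncertain. Set beside the members, *Bcl2l2* is another survival gene with fewer reads in KO, at 31.7 CPM in WT and 15.5 in KO.

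For the lists that follow, the shares of all genes tested are again 22.4% lower and 21.4% higher, and 17.4% and 20.8% after the length correction. Downstream of the members lie cytochrome c, the apoptosome and the caspases. Of 17 such genes, all 17 were tested, 2 fell and 6 rose, with a median log2 fold change of 0.06 beside -0.02 over all genes, and 1 rose past 2-fold, *Vdac3*, a channel of the outer mitochondrial membrane (17 and 40 reads, log2 fold change 1.32, limits 0.49 to 2.25). After the length correction 2 fell and 5 rose. Of 11 death receptor and adaptor genes, 10 were tested, all but the unlisted *Fasl*. Of these 10, 1 fell and 3 rose (0 and 3 after the length correction). *Tnfsf10*, the gene of the death ligand TRAIL, rose past 2-fold with 47 and 110 reads (log2 fold change 1.32, limits 0.83 to 1.86).

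Upstream, of 13 transcription factors known to act on member genes 12 were tested, all but the unlisted *Myc*. Of these 12, 4 fell and 1 rose, 2 of the falls past 2-fold. After the length correction 4 fell and 2 rose, with 0 of the falls past 2-fold. Among 17 ubiquitin enzymes, kinases and binding proteins that act on the member proteins, 16 were tested, 4 fell and 5 rose, and 2 fell and 4 rose after the correction. Of 8 receptors for cytokines that keep T cells alive, all 8 passed, 4 lower and 4 higher (beside 22.4% and 21.4% of all genes), with 0 past 2-fold, and after the correction 3 fell and 3 rose. Each of these lists thus held genes that moved in both directions.

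**Figure D5:**
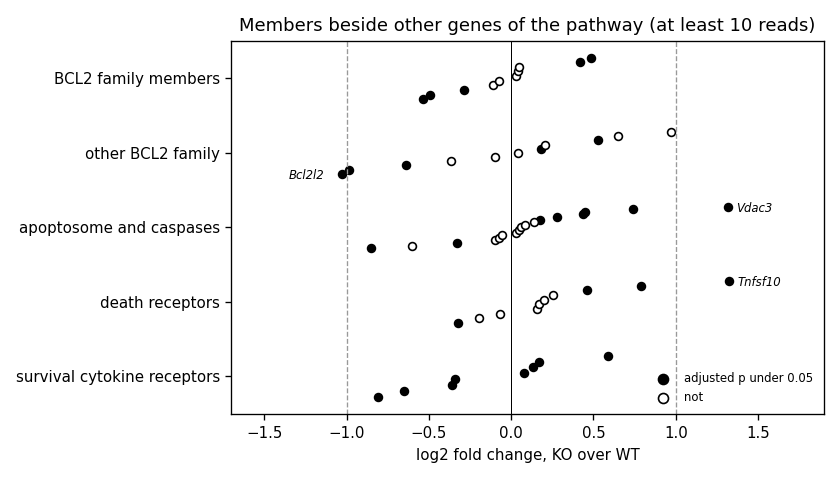
Log2 fold change, KO over WT, of the 10 members and of the tested genes of 4 related lists, each point a gene, filled where the adjusted p of the counting test was under 0.05, with dashed lines at a 2-fold change. The members lie between -0.53 and 0.48, while *Bcl2l2*, *Vdac3* and *Tnfsf10*, named in the plot, pass 2-fold.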

How the data were processed

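RNA-seq was done on 1 WT and 1 KO library of in vitro Th17 cells. Per the file headers, the authors deposited raw counts, the number of unique reads of each gene with no normalization. Mapping was to mm10 with SOAP2 according to the methods, and the submitters' processing notes name HTSeq and Bowtie. The annotation, the strand setting and the treatment of shared reads are not given in the sources used here. A gene listed in 1 table only was given 0 reads in the other. The ChIP-seq samples were not analysed here.

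Counts were scaled to library totals, with 0.5 added to each for log2 fold changes. The two-sided exact binomial test (SciPy 1.17.1) took the genes with 10 or more reads in all and was adjusted by Benjamini-Hochberg. Quasi-likelihood tests could not be fitted without replicates. Clopper-Pearson 95% intervals describe counting error alone, because there was 1 library per genotype. No molecular identifiers mark the molecules, so reads copied from the same molecule may count separately. The floor of 3 reads was 0.451 CPM in WT and 0.485 in KO. Lengths and GC content were from GENCODE M21 (longest transcript, 99.2% of genes tested) and positions from RefSeq GRCm38, the assembly of mm10. For the length correction a loess curve (statsmodels 0.14.6, span 0.3) was subtracted and the test's null share shifted by the same amount. Alternatives were TMM and assumed variation (edgeR 4.0.16), upper-quartile scaling, DESeq2 1.42.0 size factors, other filters, a pseudocount of 5, GC correction and a 1.5-fold limit. Calculations were tested on simulated data. The named genes are all members, the 2-fold calls of the first 3 related lists and the other BCL2 genes with at least 10 reads. Overlapping and neighbouring genes, single markers, *Myc* and *Fasl* were named after their values were seen. Members, lists and pairs were chosen with earlier results of these data known.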

Additional observations from a re-analysis of the deposited data

How the results depend on the processing

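Over all alternatives, 99 member values stayed on the same side of the test limit without turning, 17 lost the test, 1 gained it and 3 turned. Each value was counted once. *Bax* under the length correction, counted as turned, also came to pass the test (adjusted p 0.0138 by the counting test). Much of the 99 was fixed in advance. The pseudocount does not enter the test, and the filters leave the members' reads as they were. The assumed variations use edgeR's exact test in place of the counting test, where a member that had not passed could hardly come to pass. TMM normalization, DESeq2 size factors and upper-quartile scaling moved all log2 fold changes by at most 0.02, and under these, a pseudocount of 5 and the filters on low counts the 3 falls and 2 rises stayed. With the transcript length correction 1 member rose, the members' median moved from -0.02 to -0.15, and *Bax* turned to -0.23. With the GC content correction *Bax* turned to -0.0899 and *Pmaip1* to 0.0229, and *Mcl1* came to pass the test at 0.10. Under an assumed coefficient of variation of 0.1, 0.2 or 0.4 in edgeR's exact test 0 members fell and 0 rose. At a limit of 1.5-fold in place of 2-fold, 0 were called in either direction on library totals, while *Bcl2l1* passed 1.5-fold after the length correction. The cause of these shifts was not tested. No paired analysis was possible because there was 1 library per genotype, and for the same reason none could be left out. Depth limits *Bcl2l11* and *Bad* most, with 51 and 47 reads over both libraries.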
